A study of Mus musculus with 10 samples.

Results

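The amyloid precursor protein family and the proteases that cut its members were followed in the hippocampus of Dp1Tyb mice, a model of Down syndrome. The set held 9 genes chosen by name for their place in the pathway, out of 43629 genes in the count table. The substrates were App, Aplp1 and Aplp2, the alpha-secretase was Adam10, the beta-site enzymes were Bace1 and Bace2, and the gamma-secretase subunits were Psen2, Ncstn and Psenen. All 9 passed the filter on low counts and were among the 17237 genes tested.

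RNA sequencing was carried out on total hippocampus from 5 wild-type (WT) and 5 Dp1Tyb mice, all labelled as 18 weeks old and as strain C57BL/6J.129P2. Per the study's methods the animals were male littermates of a line backcrossed to C57BL/6JNimr. The Dp1Tyb allele, Dp(16Lipi-Zbtb21)1TybEmcf, is a germline duplication running from Lipi to Zbtb21 on mouse chromosome 16, so every cell of the carriers has 3 copies of the genes inside it and the WT mice have 2. In the GRCm38 build the segment spanned 75540514 to 97962622 (22.42 Mb). Of the 9 genes, App and Bace2 lie inside it, and the other 7 have 2 copies in both genotypes. The study asked whether expression changes in Dp1Tyb tissue cluster along the chromosomes and whether such clusters depend on the genotype. Clustering is not examined here, and the comparison is between the genotypes, gene by gene.

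App is a membrane protein abundant in neurons, and Aplp1 and Aplp2 are its relatives. Alpha-secretase and beta-secretase compete for the first cut in the App ectodomain, and gamma-secretase then cuts the remaining stub within the membrane. The beta cut followed by the gamma cut releases amyloid-beta, the peptide of Alzheimer plaques, and the human gene lies on chromosome 21, whose trisomy causes Down syndrome.

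Total counts per library ranged from 18227684 to 43692270. No 2 libraries of a genotype were alike within counting error. Of the 114 tested genes in the duplicated segment, 68 (59.6%) were called, all of them higher in Dp1Tyb, at an adjusted p under 0.05 in edgeR's quasi-likelihood test with Benjamini-Hochberg adjustment over all tested genes. Over all tested genes the share called was 1.11%, with 0.87% higher and 0.238% lower in Dp1Tyb, and outside the segment it was 0.718%. Markers of hippocampal principal neurons (Neurod6, Prox1, Wfs1, Spink8) summed to between 450 and 505 CPM (counts scaled to a common library size) in WT. In Dp1Tyb the sum was between 476 and 502 CPM. Taken singly, 3 of the 4 had a log2 fold change above 0 and 1 below, and 0 were called. Neurod6 was at 0.15 ± 0.048 (SE, edgeR adjusted p = 0.176) and Prox1 at −0.18 ± 0.057 (adjusted p = 0.184), so the sum holds opposite differences. Choroid plexus markers, of a tissue that lies beside the hippocampus, differed most among libraries, at 55.2 to 431 CPM in WT and 24.3 to 310.2 CPM in Dp1Tyb, and were lowest in Dp1Tyb replicates 1 and 4 and WT replicate 2. Since whole tissue was sequenced, fewer cells of a type and less RNA per cell cannot be told apart.

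The duplicated copy of the segment includes the App promoter, and its sequence is shown because App was the single gene of the set that passed the test. The 201 bases below lie at chr16:85173757-85173957 (GRCm38.p6, minus strand, written 5′ to 3′, from RefSeq), upstream of the RefSeq start, and the capitals mark a GC box. The last 10 bases, which hold this GC box, lie inside the App gene as annotated in GENCODE.
App: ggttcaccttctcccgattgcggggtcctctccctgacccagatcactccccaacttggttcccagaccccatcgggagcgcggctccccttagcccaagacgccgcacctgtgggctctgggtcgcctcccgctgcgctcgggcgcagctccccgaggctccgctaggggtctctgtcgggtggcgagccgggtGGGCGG
The letters GGGCGG (the GC box bound by Sp1-type factors) and TATAAA were searched on both strands in windows from 250 bases before to 50 after each start. A GC box was found in 35.7% of all 32851 promoter windows and TATAAA in 13.6%. RefSeq entries were matched for 7 of the 9 genes, with 9 windows between them. A GC box was found in 5 of these windows, those of App, Aplp1, Aplp2, Adam10 and 1 of the pair of Psen2 windows, and TATAAA in 0. The App window had a GC content of 71.0%, against a median of 52.7% over all windows. These matches describe letters only.

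Of the 9 genes, App was the only one called by edgeR, as higher in Dp1Tyb. In WT replicates 1 to 5 its level was 1549.6, 1543, 1672, 1609 and 1609.9 CPM. In Dp1Tyb replicates 1 to 5 it was 2580.0, 2585, 2618, 2572 and 2518 CPM. Every Dp1Tyb library lay far above every WT library, and the spread within a genotype was small, with a WT mean of 1597 ± 52.7 CPM against 2575 ± 36.1 CPM for the Dp1Tyb mice (SD, n = 5 each). The App gene (ENSMUSG00000022892) spans 84949685 to 85173766 on the minus strand of chromosome 16. The difference was a log2 fold change of 0.69 ± 0.042 (SE), a rise of 1.61-fold with a 95% interval of 1.52 to 1.72 (edgeR quasi-likelihood test, Benjamini-Hochberg adjusted p = 7.47e-07). App was thus 1 of 9 genes called. The interval lay above 1.5-fold, the ratio of the copy numbers, but it included 1.5-fold without WT replicate 1, WT replicate 2 or Dp1Tyb replicate 3, and without the 3 libraries lowest in choroid plexus markers. App was called under all 17 alternatives.

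**Figure D1:**
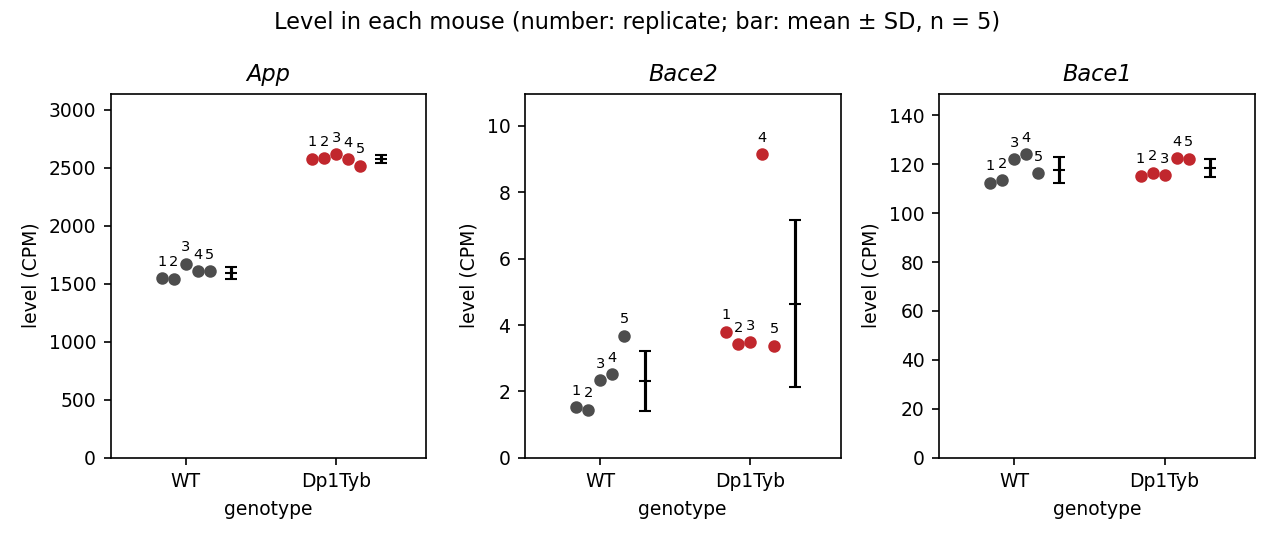
Level in CPM (vertical axis, from 0) of App, Bace2 and Bace1 in each mouse, with points numbered by replicate and bars for the mean ± SD of 5 mice. The App groups are far apart at 1543 to 1672 and 2518 to 2618 CPM, Dp1Tyb replicate 4 stands alone for Bace2 at 9.15 CPM, and the Bace1 groups overlap.

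Aplp1 and Aplp2, the relatives of App with 2 copies in both genotypes, did not pass the test. Aplp1 (ENSMUSG00000006651, chromosome 7, 30434982 to 30445535, minus strand), which is expressed mainly in neurons, was at 1084, 1109, 1165, 1219.5 and 1169 CPM in WT. It was at 1174, 1177, 1184, 1114 and 1181 CPM in Dp1Tyb. The Dp1Tyb values all fell within the WT range, and the log2 fold change was 0.02 ± 0.043 (95% interval −0.07 to 0.11, edgeR adjusted p = 0.859). Aplp2 (ENSMUSG00000031996, chromosome 9, 31149557 to 31211815, minus strand), the more widely expressed relative, was at 527, 539, 575, 537 and 522 CPM in WT. In Dp1Tyb it was at 520.0, 583, 572, 543 and 556 CPM. These groups also overlapped, with a log2 fold change of 0.04 ± 0.042 (95% interval −0.05 to 0.13, edgeR adjusted p = 0.694). Both intervals exclude a rise of 1.5-fold, which is 0.58 on the log2 scale.

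The difference between App and each relative was tested within libraries, as the log2 ratio of their CPM values. The App to Aplp1 ratio was 0.48 ± 0.049 in WT and 1.14 ± 0.042 in Dp1Tyb (SD, n = 5 each), a difference of 0.67. The App to Aplp2 ratio was 1.56 ± 0.041 in WT and 2.22 ± 0.064 in Dp1Tyb, a difference of 0.65. In both, the ratio was higher in every Dp1Tyb library than in any WT library, and an exact two-sided permutation test gave p = 0.00794, the smallest that 5 against 5 allows (0.0159 after Benjamini-Hochberg adjustment over 4 ratios).

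Levels were compared between genes per length, as CPM divided by the kilobases of the principal coding transcript (RPKM). On this scale App made up 44.5, 43.9, 44.5, 43.1 and 44.1% of the summed level of the 3 family members in the WT libraries. In the Dp1Tyb libraries its share was 55.8, 55.1, 55.4, 56.4 and 54.7%. The groups were apart, and the summed family level went from 1142 ± 39.0 to 1461 ± 20.9 RPKM. The size of the share depends on the length assigned to App, since with all annotated exons joined (12996 bases in place of 3176) it went from 20.6 to 29.2%, a difference in the same direction.

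The order of the WT levels per length was App (503 ± 16.6 RPKM), Aplp1 (491 ± 22.8), Aplp2 (149 ± 5.66), Ncstn (24.1 ± 1.24), Psenen (20.9 ± 1.47), Bace1 (19.4 ± 0.854), Adam10 (18.8 ± 0.542), Psen2 (8.13 ± 0.647) and Bace2 (0.301 ± 0.118). The ranges of App and Aplp1 overlapped in WT, as did those of Ncstn and Psenen, of Psenen and Bace1, and of Bace1 and Adam10, so these neighbours were not ordered beyond their spread. With all exons joined Aplp1 came before App, and the order among Ncstn, Psenen, Bace1 and Adam10 also changed. In Dp1Tyb App reached 811 ± 11.4 RPKM, above Aplp1 at 498 ± 12.6 RPKM, but with all exons joined App was at 198 RPKM and below Aplp1 at 386 RPKM. The order of App and Aplp1 thus depends on the length assigned to App in both genotypes.

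**Figure D2:**
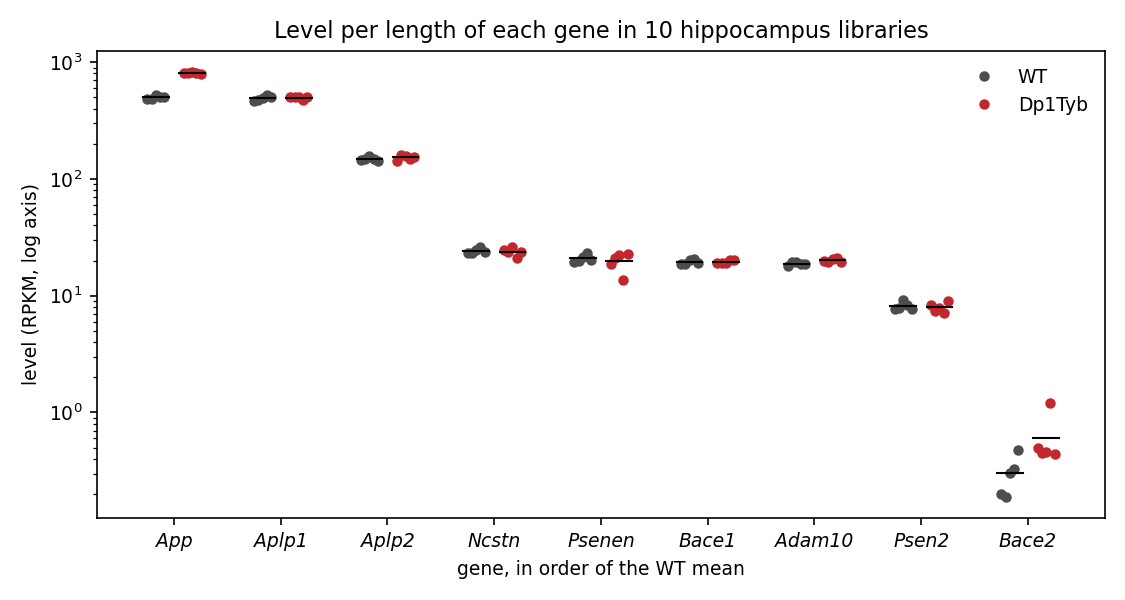
Level per length in RPKM (log axis) of the 9 genes in the 10 libraries, 1 point per mouse, with a line at the mean of each genotype and the genes in the order of the WT mean. App and Aplp1 lie together in WT at 503 and 491 RPKM and separate in Dp1Tyb at 811 and 498 RPKM on this choice of transcript length (with all exons joined App lies below Aplp1 in both), while Bace2 lies lowest in both genotypes.

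Adam10 (ENSMUSG00000054693, chromosome 9, 70678997 to 70780229, plus strand) encodes the main alpha-secretase of neurons, whose cut falls inside the amyloid-beta sequence. Its level was 82.4, 88.4, 88.6, 86.4 and 86.5 CPM in WT. It was 91.0, 89.1, 95.2, 96.3 and 88.7 CPM in Dp1Tyb. Each Dp1Tyb value was above each WT value, though the nearest libraries were 88.6 and 88.7 CPM, and the log2 fold change of 0.09 ± 0.037 (1.06-fold, 95% interval 1.01 to 1.13) did not pass the adjustment (edgeR unadjusted p = 0.0310, adjusted p = 0.297). Groups that did not overlap were found for 2 of the 9 genes, App and Adam10. Among all tested genes 3.68% had groups apart in either direction. Higher in every Dp1Tyb library were 62.3% of the tested genes in the segment, where App lies, and 2.16% of those outside it, where Adam10 lies (3.29% in either direction). Summed neuron markers also did not overlap between the genotypes, at 3468 to 3865 CPM in WT and 3893 to 4217 CPM in Dp1Tyb. Most of the sum came from Snap25 and Syt1, with WT means of 1838 and 1477 CPM. Taken singly, each of the 4 markers overlapped, and 3 had a log2 fold change above 0 and 1, Rbfox3, below. By edgeR 0 of 4 were called (2 at an unadjusted p under 0.05), and the part of these markers in the Adam10 values was not tested.

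Bace1 (ENSMUSG00000032086, chromosome 9, 45838580 to 45864399, plus strand), the beta-secretase that makes amyloid-beta in the brain, gave nearly equal levels in both genotypes. It was at 112, 113, 122, 124 and 116 CPM in WT. In Dp1Tyb it was at 115, 116, 115, 122 and 122 CPM. The Dp1Tyb values all lay within the WT range, and the log2 fold change was 0.01 ± 0.038 (95% interval −0.07 to 0.09, edgeR adjusted p = 0.941).

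Bace2 (ENSMUSG00000040605, chromosome 16, 97356742 to 97442936, plus strand), a related protease that can cut App within the amyloid-beta sequence, was the scarcest of the set. Its counts were 49, 35, 43, 83 and 79 in WT, which is 1.52, 1.46, 2.33, 2.51 and 3.68 CPM. In Dp1Tyb the counts were 166, 98, 87, 302 and 74, which is 3.81, 3.43, 3.48, 9.15 and 3.38 CPM. The groups overlapped, because WT replicate 5 lay above 3 of the Dp1Tyb libraries, and Dp1Tyb replicate 4 stood apart from the other Dp1Tyb libraries. The log2 fold change was 1.04 ± 0.32 (2.06-fold, 95% interval 1.27 to 3.34), which did not pass the adjustment (edgeR unadjusted p = 0.00677, adjusted p = 0.167, range over the alternatives 0.0682 to 0.508). Without Dp1Tyb replicate 4 it was 1.55-fold (log2 0.63 ± 0.23, adjusted p = 0.281), and without the 3 libraries lowest in choroid plexus markers, replicate 4 among them, it was 0.46 ± 0.23 on the log2 scale. The interval of Bace2 includes 1.5-fold.

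Within libraries, the log2 ratio of Bace2 to Bace1 was −5.75 ± 0.52 in WT and −4.79 ± 0.59 in Dp1Tyb (SD, n = 5 each), a difference of 0.96 by the exact two-sided permutation test (p = 0.0317, adjusted p = 0.0423 over 4 ratios). This call was lost when any of WT replicates 1 to 4 or Dp1Tyb replicates 1 or 4 was left out, with a difference of 0.70 without Dp1Tyb replicate 4. Per length, Bace2 stood at 1.54 ± 0.600% of the Bace1 level in WT and 3.09 ± 1.59% in Dp1Tyb. The ratio of App to Bace2, the set's genes with 3 copies, was 9.51 ± 0.52 in WT and 9.23 ± 0.62 in Dp1Tyb on the log2 scale (exact permutation p = 0.508, adjusted p = 0.508), a difference of −0.28 that was smaller than the SD within either genotype.

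The gamma-secretase subunits did not pass the test. Ncstn (ENSMUSG00000003458, chromosome 1, 172066013 to 172082795, minus strand), the large glycoprotein that receives substrates, was at 66.9, 66.8, 72.2, 75.1 and 69.1 CPM in WT. It was at 71.3, 68.9, 75.6, 61.2 and 68.4 CPM in Dp1Tyb. Dp1Tyb replicate 4 was lowest of all and replicate 3 highest, and the log2 fold change was −0.02 ± 0.056 (95% interval −0.14 to 0.10, edgeR adjusted p = 0.901).

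Psen2 (ENSMUSG00000010609, chromosome 1, 180227004 to 180263438, minus strand), a presenilin and so a catalytic subunit, was at 15.4, 15.8, 18.5, 16.9 and 15.5 CPM in WT. It was at 16.7, 15.0, 15.9, 14.2 and 18.3 CPM in Dp1Tyb. The groups overlapped, with a log2 fold change of −0.03 ± 0.079 (95% interval −0.20 to 0.14, edgeR adjusted p = 0.878).

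Psenen (ENSMUSG00000036835, chromosome 7, 30561863 to 30563627, minus strand), the small subunit needed for presenilin to mature, was at 13.9, 14.1, 15.2, 16.4 and 14.3 CPM in WT. It was at 13.2, 14.9, 15.9, 9.63 and 16.0 CPM in Dp1Tyb. Dp1Tyb replicate 4 was again lowest, and the log2 fold change was −0.09 ± 0.12 (95% interval −0.35 to 0.17, edgeR adjusted p = 0.753). Of the 7 genes with 2 copies, 4 had a log2 fold change above 0 and 3 below, the largest in size being 0.093, and their median was 0.0085 beside −0.0049 for tested genes outside the segment. Bace1, Psen2, Ncstn and Psenen are each overlapped on the opposite strand by genes with counts of their own (Rnf214 and Gm16536, Gm31728, Copa and U2af1l4). The study's methods name a stranded library kit, but the strand setting of the counting was not given in the sources used here. The counts of these 4 genes may therefore be affected by the overlap.

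**Figure D3:**
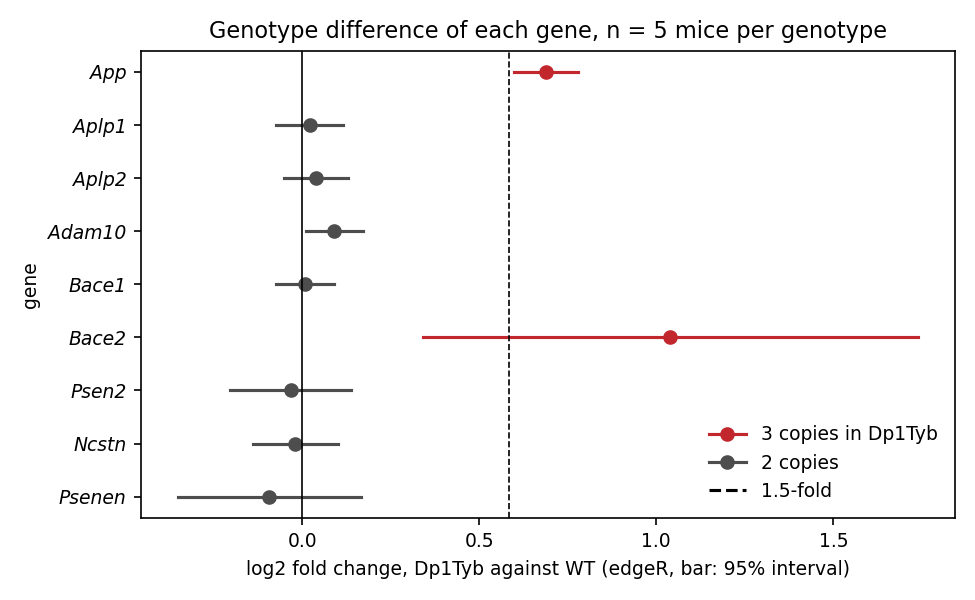
Log2 fold change of each of the 9 genes, Dp1Tyb against WT (horizontal axis, edgeR), with bars for the 95% interval, a solid line at 0 and a dashed line at 1.5-fold. App lies at 0.69 with a narrow interval above the dashed line, Bace2 at 1.04 with a wide one, and the other 7 genes, with 2 copies, lie between −0.09 and 0.09.

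Among the 114 tested genes of the segment, App took the most reads, at 23.3% of the segment's summed CPM in WT and 24.5% in Dp1Tyb. It ranked 21st by log2 fold change, while Bace2 ranked 2nd by log2 fold change and 81st by its share of reads. The median of the segment's tested genes was 1.45-fold. The tested genes nearest to App were Gabpa, a transcription factor subunit, at 0.57 ± 0.055 on the log2 scale (edgeR adjusted p = 5.46e-05), and on the other side Cyyr1 at 0.47 ± 0.062 (adjusted p = 0.00115). Beyond Gabpa, both Atp5j, a subunit of the mitochondrial ATP synthase, at 0.50 ± 0.074 and Jam2, a junction protein, at 0.71 ± 0.053 rose (adjusted p = 0.00329 and 6.10e-06). Beyond Cyyr1, the processed pseudogene Gm2541 was at 0.12 ± 0.24 and did not pass (adjusted p = 0.855), and Adamts1, a secreted metalloproteinase, rose by 0.64 ± 0.082 (adjusted p = 0.000886).

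The 3 tested genes on each side of Bace2 were Dscam, Pcp4 and Itgb2l, and Mx1, Mx2 and Ripk4. Dscam, a neuronal adhesion molecule, rose by 0.63 ± 0.051 on the log2 scale (edgeR adjusted p = 1.25e-05). Pcp4, a calmodulin-binding protein, was at 0.43 ± 0.21 (adjusted p = 0.365) and Itgb2l at −0.24 ± 0.50 (adjusted p = 0.857), and neither passed. Mx1, an interferon-induced gene 4.1 kb from Bace2, had a log2 fold change of 0.09 ± 0.32 (adjusted p = 0.927) at under 0.4 CPM in the mean of either genotype. Mx2, the next gene, annotated as a polymorphic pseudogene, rose by 1.06 ± 0.18 (edgeR adjusted p = 0.0117). Its level was low, with means of 0.889 CPM in WT and 1.84 CPM in Dp1Tyb. Ripk4 was at 0.82 ± 0.26 (adjusted p = 0.169).

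**Figure D4:**
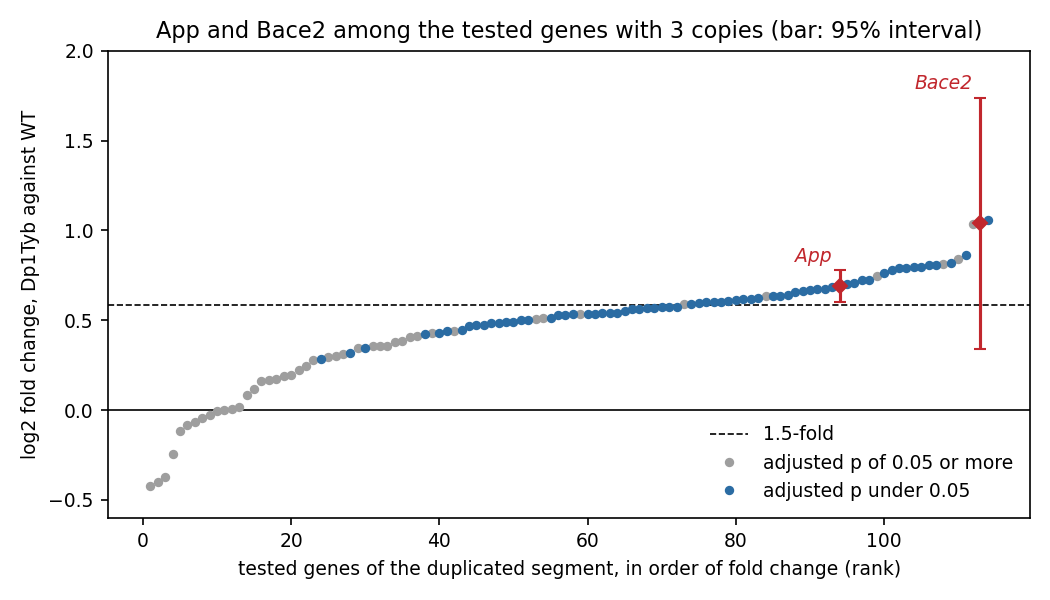
Log2 fold change (vertical axis) of the 114 tested genes of the duplicated segment in rising order (horizontal axis, rank), with genes at an adjusted p under 0.05 in blue and a dashed line at 1.5-fold. App (0.69) and Bace2 (1.04), in red with 95% intervals, both lie in the upper part of the order, with a much wider interval for Bace2.

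The genes whose log2 CPM followed App most closely over the 10 libraries were Vps26c (Pearson r = 0.996), Ifnar1 (0.990), Dyrk1a (0.987), Zbtb21 (0.987) and Paxbp1 (0.986), out of 15091 compared. All 5 lie in the duplicated segment and share the step between the genotypes. Those closest to Bace2 were Trhr (r = 0.974), Gsap (0.961), Lhx9 (0.952), Qk (0.944) and Adgb (0.940), none of them in the segment. Each had its highest level in Dp1Tyb replicate 4, as Bace2 did. Trhr, the thyrotropin-releasing hormone receptor, was at 11.6 CPM in that library, 5.84 to 7.14 CPM in the other Dp1Tyb libraries and 3.29 to 6.67 CPM in WT. These correlations are descriptions over the same 10 libraries.

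Other genes of the pathway were taken from 6 lists with 66 genes, all tested. By edgeR 0 of 66 were called and 13 had an unadjusted p under 0.05 (14.4% of all tested genes did). Limma voom called 0 of 66, beside 186 of all 17237 genes in that fit. DESeq2 called 2 of 66, Rtn3 and Clu, beside 507 of all genes in that fit. There 28977 genes had a p-value, but DESeq2's own filter on low counts leaves fewer with an adjusted p. The share among genes that could be called is thus higher than 507 of 28977, and the 2 calls are not read as an excess. Log2 fold changes were above 0 for 40 and below 0 for 26, with a median of 0.02 beside −0.0041 for all tested genes.

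Of 5 gamma-secretase accessory genes, 3 had a log2 fold change above 0. The ones that differed most were Aph1a, a core subunit, at −0.23 ± 0.13 (edgeR adjusted p = 0.458) and Gsap, the gamma-secretase activating protein, at 0.23 ± 0.093 (adjusted p = 0.292). Of 7 other proteases that cut App or related proteins, 3 were above 0. Mmp24, a membrane metalloproteinase, was at −0.13 ± 0.045 (adjusted p = 0.206) and Ctsd, a lysosomal protease, at −0.10 ± 0.087 (adjusted p = 0.630).

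Of 15 genes for secretase inhibitors and trafficking, 10 were above 0. Rtn3, a reticulon that binds Bace1, was at 1097 to 1138 CPM in WT and 1192 to 1261 CPM in Dp1Tyb. These ranges did not overlap, which held for 3.29% of tested genes outside the segment in either direction. The log2 fold change of 0.13 ± 0.037 did not pass the adjustment (edgeR adjusted p = 0.127). Vps35, the retromer subunit that returns App from endosomes, was at 0.14 ± 0.041 (adjusted p = 0.126). Of 14 adaptors and interactors of App, 11 were above 0, and the ones that differed most were Apba3 at −0.21 ± 0.090 (adjusted p = 0.303) and Apbb1ip at 0.19 ± 0.10 (adjusted p = 0.423).

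Of 10 genes for degradation and clearance of amyloid-beta, 5 were above 0. Ace, a peptidase, ranged from 16.6 to 115 CPM in WT and from 11.03 to 78.7 CPM in Dp1Tyb, with a log2 fold change of −0.98 ± 0.57 (edgeR adjusted p = 0.458). A2m, a protease inhibitor that binds the peptide, was at −0.60 ± 0.36 (adjusted p = 0.466). Clu, an apolipoprotein also called clusterin, had the smallest adjusted p of the 66 genes and was named after its values were seen. It was at 853 to 916 CPM in WT and 647 to 815 CPM in Dp1Tyb, with a log2 fold change of −0.21 ± 0.058 (adjusted p = 0.111). These ranges did not overlap, as for 3.29% of tested genes outside the segment in either direction. The 7 choroid plexus markers were all below 0 (median −0.94, 0 called by edgeR, 0 at an unadjusted p under 0.05). Of 5 astrocyte markers, 3 were above 0 and 2 below, and 1 was called, Gfap, which rose by 0.26 ± 0.047 (adjusted p = 0.0167). Their summed level was 3212 to 3851 CPM in WT and 3415 to 3745 CPM in Dp1Tyb. The part of either list in the Ace, A2m and Clu values was not tested.

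Of 15 substrates of the secretases, 8 were above 0. Chl1, an adhesion molecule cut by Bace1, was at 0.16 ± 0.059 (edgeR adjusted p = 0.246), and Notch1, a receptor cut by Adam10 and gamma-secretase, was at −0.16 ± 0.078 (adjusted p = 0.375). Since mRNA was measured, the amounts and activities of the proteins and the cut products were not analysed here.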

How the data were processed

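Per the labels and the study's methods, the authors trimmed reads, aligned them to the mouse genome and counted reads per gene, and deposited raw counts for 10 libraries. The submitters' processing notes name Trim Galore, TopHat2 (2.0.12), HTSeq and DESeq2 (1.6.3). Neither the annotation release nor whether counting used strand was given in the sources used here. A table of the authors' normalized values and one of their own comparison (fold changes and p-values) were not used. Genes were matched by Ensembl ID to GENCODE M21 (GRCm38). Of 43629 genes, 42548 matched, and the other 1081 held 0.103% of counts.

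Counts were tested in edgeR 4.0.16 (R 4.3.3) with TMM scaling, filterByExpr by genotype and the quasi-likelihood test on all 10 libraries, with genotype as the only term. P-values were adjusted by Benjamini-Hochberg over 17237 genes and called under 0.05. CPM values use TMM library sizes. RPKM divides CPM by the length of the longest annotated principal coding transcript. The 4 log2 ratios, with a prior of 0.5 counts, were compared by exact two-sided permutation of the libraries (scipy 1.17.1, 252 relabellings). Intervals are at 95%. The labels give no batch. Libraries shared replicate numbers across genotypes, but nothing in the labels pairs the mice. The labels call each library a separate sample, so p-values measure the spread between these samples.

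The genes and lists were chosen with earlier results of these data known. All 9 genes are named, and of each pathway list those called and, of the rest, the 2 with the largest log2 fold change in size. Likeness was ranked over 15091 genes with a mean of at least 1 CPM, and 5 are named. The fit was tested on simulated data. Alternatives were DESeq2 1.42.0, limma voom (3.58.1), other size factors, no filter, a replicate block and leaving out each library. Leaving out the 3 libraries lowest in choroid plexus markers was chosen after seeing the data.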

Additional observations from a re-analysis of the deposited data

Results flagged for a closer look

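In groups of 5 libraries, a value was singled out where its gap to the next was over 0.71 of the group's range (Dixon's test). Of 26 groups examined, 4 had such a value, where chance gives about 1 in 20 (1.3 groups). All 4 were of Dp1Tyb replicate 4. Its Aplp1 level was 10.12 on the log2 CPM scale, against 10.20 to 10.21 in the other Dp1Tyb libraries. Its Bace2 level was 3.20, against 1.76 to 1.93. The other 2 rest on that same Bace2 value. The log2 ratio of Bace2 to Bace1 was −3.74 in this library, against −5.17 to −4.92, and that of App to Bace2 was 8.13, against 9.40 to 9.55. In this library the share of counts from mt-Co1, the gene with the most counts summed over all libraries, was 1.43%, against 1.63 to 1.79% in the other 9 libraries. Summed choroid plexus markers were at 29.3 CPM in Dp1Tyb replicate 4. They were lower still, at 24.3 CPM, in Dp1Tyb replicate 1, which had no value singled out. The part of mt-Co1 or of the choroid plexus markers in these values was not tested.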

How the results depend on the processing

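App alone of the 9 genes was called under all 17 alternatives, with a log2 fold change of 0.67 to 0.71, and Bace2, Adam10, Aplp1 and Aplp2 kept their sign. The number of genes called, 191, became 507 with DESeq2, 105 without WT replicate 4 or without Dp1Tyb replicate 2, 111 without Dp1Tyb replicate 3, 127 without WT replicate 5 and 108 without the 3 libraries lowest in choroid plexus markers. Leaving out 1 library gave 0.65 to 0.68 for the App to Aplp1 difference, 0.63 to 0.67 for App to Aplp2 and 0.70 to 1.15 for Bace2 to Bace1, the last losing its call in 6 of 10 cases (adjusted p = 0.0529 to 0.0741, exact permutation). Uncalled log2 fold changes near 0 changed sign. With 1 library left out, Bace1 ranged from −0.0078 to 0.029, Psen2 from −0.082 to 0.011, Ncstn from −0.054 to 0.019 and Psenen from −0.15 to 0.013. Without the 3 libraries they were −0.014 for Bace1 and 0.053 for Psenen. The causes were not tested.

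The labels do not pair same-numbered libraries, and 5 correlations cannot settle whether the mice were paired. The r of their deviations was −0.076 to 0.27, over 0.1 in 3 of 5 pairs, and 1 of 5 WT libraries was closest to its own number. A replicate block moved the genes called from 191 to 315. With the block the ratio differences were 0.67, 0.65 and 0.96, with adjusted p = 0.125, 0.125 and 0.167 by an exact sign-flip test, whose smallest p over 5 pairs is 0.0625, so that it could not pass. It changed no call among the 9 genes. Bace2 had the fewest counts of the 9 genes, 35 to 302 per library, and its CPM had a coefficient of variation of 39.3% in WT and 54.3% in Dp1Tyb.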
